A study of Mus musculus with 14 samples.

Results

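The genes described here are the mouse inhibitors of cyclin-dependent kinases (CDKs) and the D cyclins, 10 genes of the 52550 in the deposited count table. They were chosen by name and by no measured value. The set holds 4 INK4 inhibitors (Cdkn2a, Cdkn2b, Cdkn2c and Cdkn2d), 3 Cip/Kip inhibitors (Cdkn1a, Cdkn1b and Cdkn1c) and 3 D cyclins (Ccnd1, Ccnd2 and Ccnd3), and each of the 10 names matched 1 gene.

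RNA of 14 samples was sequenced after removal of ribosomal RNA. Bone marrow of C57BL/6 mice aged 8 to 20 weeks was depleted of mature cells with an antibody set to enrich hematopoietic stem and progenitor cells (HSPCs), from wild-type (WT) mice in 4 samples and from Mir139KO mice in 4. Mir139KO mice had been made with paired Cas9 nickases on both sides of Mir139, the gene of the microRNA miR-139. The other 6 samples were MLL-AF9 cells, WT HSPCs grown overnight with SCF, GM-CSF, IL-6 and IL-3, transduced with the retrovirus pMSCV-MLL-AF9-neo (neo, 3 samples) or pMSCV-MLL-AF9-puro (puro, 3 samples), selected on the matching drug and replated repeatedly in MethoCult, a semisolid medium. MLL-AF9 is the leukemia fusion of MLL (Kmt2a) with AF9. HSPCs grown without MLL-AF9 were not sampled, so the fusion gene, the culture, the drug selection and the replating cannot be told apart in any comparison of MLL-AF9 cells with HSPCs. The labels do not say that the samples of a group came from separate mice or transductions, and p-values then measure only the spread between these samples.

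D cyclins bind and activate CDK4 and CDK6, which phosphorylate the retinoblastoma protein (RB) and so release E2F factors that drive the genes of S phase. INK4 proteins bind CDK4 and CDK6 themselves and block them, whereas Cip/Kip proteins bind cyclin-CDK complexes and block mainly CDK2. In blood formation Cdkn2c, Cdkn1a, Cdkn1b and Cdkn1c are known as brakes on the cycling of stem and progenitor cells, and Cdkn2a and Cdkn2b are known as genes kept silent by Polycomb proteins in normal progenitors and often deleted in leukemia.

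Levels are given as counts scaled to library size (CPM) after TMM normalization across the 14 libraries, whose totals were 35016668 to 45877994. A gene called in a comparison had an adjusted p under 0.05 in the quasi-likelihood test of edgeR. A single noncoding RNA gene, Gm26917, took 7.55 to 10.4% of the counts in MLL-AF9 libraries, 17.0 to 21.9% in WT replicates 1 and 2 and Mir139KO replicates 2 and 3, and 32.7 to 35.4% in the other 4 HSPC libraries. All 8 HSPC markers searched had over 10 counts in every HSPC library. The HSPC preparations also held markers of some maturing lineages that were close to 0 in MLL-AF9 cells. The summed level was 380 to 878 CPM for 6 erythroid markers in WT HSPCs against 0.801 to 2.38 CPM in MLL-AF9 cells. For 6 B cell markers it was 1576 to 2529 against 6.11 to 28.9 CPM. Hba-a1, Hbb-bs, Ebf1 and Pax5 were under 10 counts in every MLL-AF9 library. Alas2, in the erythroid list, was at 0 in all groups, and Ighm, in the B cell list, alone averaged 2083 CPM in WT HSPCs. Mast cell and basophil markers came to 515 to 1554 CPM in WT HSPCs against 4.38 to 18.9 CPM in MLL-AF9 cells. For megakaryocyte markers the sums were 143 to 651 against 10.0 to 41.8 CPM, and for T and NK cell markers 64.0 to 127 against 2.09 to 10.2 CPM. The sums of neutrophil and monocyte markers were not close to 0 in MLL-AF9 cells. Neutrophil markers came to 3816 to 11895 CPM in WT HSPCs against 1463 to 2856 CPM, and monocyte markers to 650 to 972 against 188 to 744 CPM. The monocyte markers did not move together. Csf1r (-3.71 on the log2 scale), Cx3cr1 (-2.58) and Ly86 (-5.24) were called lower in MLL-AF9 cells, Adgre1 (1.47) was called higher and F13a1 (-0.04) was not called. The part of these lineages in the differences below was not tested, and in bulk RNA fewer cells of a type and less RNA per cell cannot be told apart. Mir139 itself was listed at 0 in all 14 libraries, so it did not check the genotype labels, whereas Hoxa9, a known MLL-AF9 target, had 6223 to 8795 counts in MLL-AF9 libraries and 86 to 264 in HSPC libraries.

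The promoters of 4 inhibitors are shown first, those of the 3 that were called higher in MLL-AF9 cells with each vector alone (Cdkn2a, Cdkn2b and Cdkn1a) and, for contrast, that of Cdkn1b, which was not called over both vectors. They are from RefSeq on build GRCm38.p6, each as up to 250 bases on the gene's own strand that end just before the first annotated exon base. Cdkn2a has a pair of starts with separate first exons: start 1, the farther upstream, makes the mRNA of p19Arf (chr4:89294654-89294869, minus strand), and start 2 makes that of p16Ink4a (chr4:89282193-89282442, minus strand). Cdkn2b lies next to it (chr4:89311040-89311282, minus strand). The first start of Cdkn1a (chr17:29090729-29090975, plus strand) and the start of Cdkn1b (chr6:134920151-134920400, plus strand) complete the set. Capitals mark a GC box (GGGCGG) in Cdkn2a start 1 and Cdkn1b and a p53 response element in Cdkn1a.
Cdkn2a start 1: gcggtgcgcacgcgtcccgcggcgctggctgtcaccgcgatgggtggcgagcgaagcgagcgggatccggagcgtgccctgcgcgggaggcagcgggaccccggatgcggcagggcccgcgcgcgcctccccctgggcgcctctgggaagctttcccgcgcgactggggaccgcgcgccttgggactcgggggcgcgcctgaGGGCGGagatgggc
Cdkn2a start 2: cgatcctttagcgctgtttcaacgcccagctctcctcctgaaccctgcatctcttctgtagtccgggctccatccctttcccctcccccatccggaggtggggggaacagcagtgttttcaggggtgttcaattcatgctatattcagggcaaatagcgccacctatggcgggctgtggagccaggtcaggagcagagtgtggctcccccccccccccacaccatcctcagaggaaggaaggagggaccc
Cdkn2b: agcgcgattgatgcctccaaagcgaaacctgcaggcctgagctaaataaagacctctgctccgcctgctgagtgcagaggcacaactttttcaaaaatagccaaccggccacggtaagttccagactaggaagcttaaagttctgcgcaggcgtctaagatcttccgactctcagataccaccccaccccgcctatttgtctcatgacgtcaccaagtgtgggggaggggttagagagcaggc
Cdkn1a start 1: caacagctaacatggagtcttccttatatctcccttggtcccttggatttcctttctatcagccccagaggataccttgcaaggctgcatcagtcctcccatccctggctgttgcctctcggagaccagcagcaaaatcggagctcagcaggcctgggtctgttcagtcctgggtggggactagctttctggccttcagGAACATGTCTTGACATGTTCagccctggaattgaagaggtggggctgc
Cdkn1b: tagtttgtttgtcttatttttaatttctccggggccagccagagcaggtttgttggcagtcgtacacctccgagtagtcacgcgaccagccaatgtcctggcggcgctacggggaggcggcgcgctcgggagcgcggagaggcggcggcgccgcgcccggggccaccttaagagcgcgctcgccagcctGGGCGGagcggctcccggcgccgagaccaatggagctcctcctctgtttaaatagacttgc

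These promoters differ in base composition. The 250 bases before Cdkn2a start 1 were 78.4% G and C with 40 CpG, against 60.0% and 7 CpG before start 2, 53.6% and 12 CpG before Cdkn2b, 54.0% and 2 CpG before Cdkn1a start 1, and 64.4% and 28 CpG before Cdkn1b. Over all 32851 promoters of the same length the medians were 52.4% and 6 CpG. Cdkn1a also has a start 2, farther downstream (chr17:29093769, plus strand). The 250 bases before it were 64.8% G and C with 19 CpG, and held 2 GC boxes and no p53 element. Counts are per gene and do not show which start of Cdkn1a was used. The p53 element of Cdkn1a runs from 51 to 32 bases before start 1. It was searched as a pair of abutting p53 motifs with at most 1 of 20 letters off, a rule chosen after the sequence was seen, and 0.0578% of all promoters hold such a match. RefSeq promoters matched 7 of the 10 genes with 11 windows, and among them no other window held the p53 element. GC boxes, searched on both strands, were in 7 of the 11 windows and in 32.7% of all promoters. CCAAT was in 3 windows and 33.8% of all promoters. The E2F letters TTTCGCGC and TTTGGCGC (0.654% of promoters), TATAAA (12.4%) and CACGTG (6.02%) were in none of the 11 windows, and no matches to different motifs overlapped. Cdkn1c, Ccnd1 and Ccnd2 had no promoter entry. The windows of Cdkn2c and of Cdkn1a start 2 are not printed because they hold annotated exon bases. A match is a run of letters and was not tested as a site. The pair of mature microRNAs made from Mir139, which Mir139KO HSPCs were made to lack, is given with each seed (bases 2 to 8) in capitals (chr7:101475382-101475403 and chr7:101475418-101475439, plus strand).
mmu-miR-139-5p: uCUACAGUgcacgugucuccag
mmu-miR-139-3p: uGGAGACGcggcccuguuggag

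The first question was how the brakes and drivers of the G1 phase differed between MLL-AF9 cells and the WT HSPCs they were made from. Of the 10 genes, 7 were called: Cdkn2a, Cdkn2b, Cdkn1a and Cdkn1c were higher in MLL-AF9 cells and Cdkn2d, Ccnd1 and Ccnd3 were lower. Over all 17077 genes tested 62.2% were called, 32.8% higher and 29.4% lower, so the share of the 10 genes called, 7 of 10, lies near that of all genes. The groups did not overlap for 6 of the 10, against 50.5% of all genes. The median size of the log2 difference was 2.17 over the 10 genes and 1.35 over all genes. With total counts in place of TMM factors the median log2 difference of all genes moved from 0.14 to 0.69. All 7 kept their direction there.

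**Figure D1:**
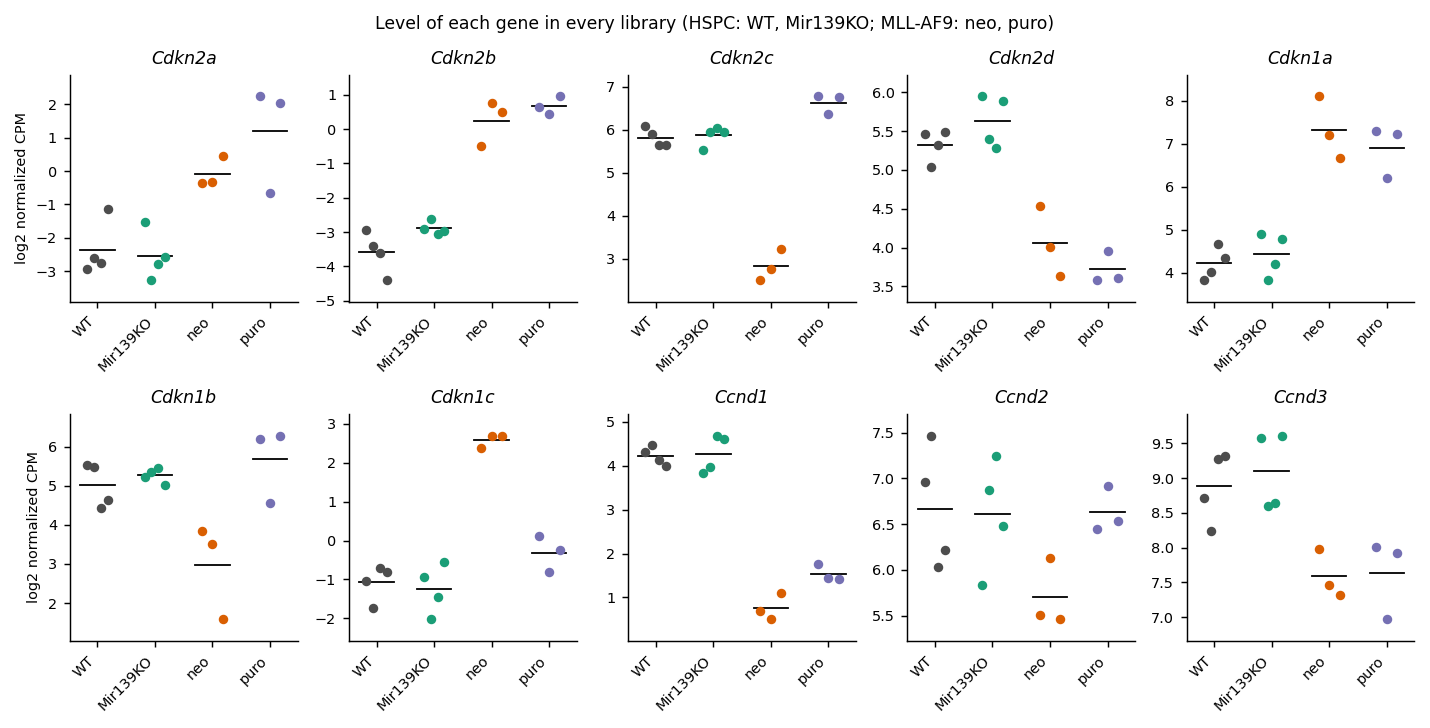
Level of the 10 genes in each library, as log2 of normalized CPM, with a point per library and a line at the mean of WT HSPCs, Mir139KO HSPCs (4 libraries each), neo and puro MLL-AF9 cells (3 each); the vertical range differs between panels. WT and Mir139KO points overlap in all 10 panels, Cdkn2a, Cdkn2b and Cdkn1a stand higher and Ccnd1 lower in all 6 MLL-AF9 libraries, and Cdkn2c and Cdkn1c split the neo from the puro libraries.

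Cdkn2a, which encodes the CDK inhibitor p16Ink4a and, from the other start and in another reading frame, the p53 activator p19Arf, was close to the limit of detection in HSPCs and higher in every MLL-AF9 library (chromosome 4, 89274471 to 89294653). It was at 0.0832, 0.116, 0.100 and 0.409 CPM in WT HSPC replicates 1 to 4, from 3 to 11 counts a library. Neo cells held 0.736, 0.749 and 1.32 CPM, and puro cells 4.65, 0.586 and 4.09 CPM. The lowest MLL-AF9 library, puro replicate 2, was above the highest WT library, replicate 4, so the groups did not overlap, and puro replicates 1 and 3 were far above the other 4 MLL-AF9 libraries. The log2 difference was 3.55 ± 0.84 (SE, adjusted p = 0.00309, edgeR). As a plain ratio of normalized counts, from 627 against 23 counts, it was 12.96-fold (95% interval 8.56 to 20.6, counting error only). Against WT replicates 3 and 4 alone, those with the higher Gm26917 shares, it was 2.92 and not called (adjusted p = 0.0585), and without WT replicate 4 it was 4.28. Counts of the p16Ink4a and p19Arf mRNAs are pooled in this gene and could not be told apart.

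Cdkn2b, which encodes p15Ink4b, a CDK4 and CDK6 inhibitor known to be induced by TGF-beta, showed a larger difference from an even lower start (chromosome 4, 89306299 to 89311039). It was at 0.0832, 0.0463, 0.0334 and 0 CPM in WT HSPC replicates 1 to 4, which are 4, 2, 1 and 0 counts, and the 0 allows up to 0.111 CPM. Neo cells held 0.658, 1.64 and 1.36 CPM and puro cells 1.53, 1.31 and 1.88 CPM. All 6 MLL-AF9 libraries were above all 4 WT libraries, and neo replicate 1 was the lowest of them. The fitted log2 difference was 4.87 ± 0.62 (SE, adjusted p = 6.13e-05, edgeR), a value that depends on the prior count for so few reads. The ratio of normalized counts, from 435 against 7 counts, was 29.5-fold (95% interval 14.2 to 73.9, counting error only). At 1.40 ± 0.416 CPM (SD, n = 6) Cdkn2b was still a low transcript in MLL-AF9 cells.

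The genes on either side of this pair moved in more than 1 way. Mtap, the nearest protein-coding gene on the side of Cdkn2a and an enzyme of methionine salvage, had 353 to 1810 counts in WT libraries and 833 to 3043 in MLL-AF9 libraries, which overlap. Gm12606, the noncoding RNA gene nearest to Cdkn2a on that side, had 0 or 1 counts in each HSPC library, 3, 7 and 1 in neo and 47, 8 and 47 in puro libraries. Gm12610, on the side of Cdkn2b, had 0 to 2 counts in HSPCs, 12, 12 and 55 in neo and 31, 7 and 24 in puro libraries. Dmrta1, the next protein-coding gene on that side, had 2 to 17 counts in WT libraries and 0 in all 6 MLL-AF9 libraries. Puro replicates 1 and 3 were thus the highest libraries for both Cdkn2a and Gm12606.

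Cdkn2c, which encodes p18Ink4c, a brake on the self-renewal of hematopoietic stem cells, was not called over the 6 MLL-AF9 libraries, and the vectors stood on opposite sides of the WT level (chromosome 4, 109660876 to 109667189). Its level was 68.2, 59.8, 50.2 and 49.8 CPM in WT HSPC replicates 1 to 4. Neo cells held 5.69, 6.72 and 9.29 CPM and puro cells 109.7, 82.9 and 108 CPM. Every neo library was below and every puro library above all 4 WT libraries. The pooled log2 difference was -0.09 ± 0.79 (SE, adjusted p = 0.926, edgeR). Against WT HSPCs alone, neo cells were lower by a log2 difference of -2.96 ± 0.37 (adjusted p = 1.55e-04) and puro cells higher by 0.83 ± 0.30 (adjusted p = 0.0393), by the same test.

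Cdkn2d, which encodes p19Ink4d, a further direct inhibitor of CDK4 and CDK6, was lower in MLL-AF9 cells with both vectors (chromosome 9, 21288410 to 21291407). WT HSPC replicates 1 to 4 held 43.9, 32.7, 39.9 and 44.9 CPM. Neo cells held 23.2, 16.1 and 12.3 CPM and puro cells 11.99, 15.5 and 12.2 CPM. The highest MLL-AF9 library, neo replicate 1, was below the lowest WT library, replicate 2. The log2 difference was -1.41 ± 0.26 (SE, adjusted p = 6.42e-04, edgeR), with 15.2 ± 4.30 CPM in MLL-AF9 cells (SD, n = 6) and 40.3 ± 5.52 CPM in WT HSPCs (SD, n = 4). With total counts only it was -0.81 and with a correction for GC content -0.76, called in both.

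Cdkn1a, which encodes p21, the inhibitor through which p53 halts the cell cycle, rose in MLL-AF9 cells with both vectors (chromosome 17, 29090976 to 29100727). In WT HSPC replicates 1 to 4 it stood at 14.3, 16.3, 25.6 and 20.3 CPM. Neo cells held 274.7, 147 and 101.5 CPM and puro cells 158, 73.9 and 149.7 CPM. All 6 MLL-AF9 libraries were above all WT libraries, with neo replicate 1 the highest and puro replicate 2 the lowest. Their means of 151 ± 68.9 CPM (SD, n = 6) and 19.1 ± 4.95 CPM (SD, n = 4) gave a log2 difference of 2.98 ± 0.40 (SE, adjusted p = 8.88e-05, edgeR). It was 3.66 with total counts only and 3.59 with the GC correction. Of its exon bases, 7.68% are shared with a gene on the other strand.

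Cdkn1b, which encodes p27, the inhibitor that holds cells in quiescence and is removed through the ubiquitin ligase of SKP2, was not called in the pooled comparison and spread widely in WT HSPCs and with each vector (chromosome 6, 134920401 to 134925513). WT HSPC replicates 1 to 4 held 46.1, 44.6, 21.7 and 24.8 CPM. Neo cells held 14.3, 11.3 and 2.97 CPM and puro cells 73.6, 23.5 and 77.7 CPM. All neo libraries were below all WT libraries, while puro replicates 1 and 3 were above them and puro replicate 2 lay among them. The pooled log2 difference was -0.02 ± 0.71 (SE, adjusted p = 0.984, edgeR). For neo cells alone it was -1.82 ± 0.56 (adjusted p = 0.0184) and for puro cells alone 0.79 ± 0.49 (adjusted p = 0.190), by the same test.

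Cdkn1c, which encodes p57, an imprinted inhibitor of quiescent stem cells, was called as higher in the pooled comparison, and its rise lay in the neo libraries (chromosome 7, 143458339 to 143461050). WT HSPC replicates 1 to 4 held 0.437, 0.255, 0.568 and 0.520 CPM, from 11 to 21 counts a library. Neo cells held 5.17, 6.42 and 6.36 CPM and puro cells 1.05, 0.528 and 0.791 CPM. Neo libraries were far above WT libraries, whereas puro replicate 2 lay inside the WT range. The pooled log2 difference was 2.92 ± 0.80 (SE, adjusted p = 0.0073, edgeR). It was 3.77 ± 0.46 (adjusted p = 1.26e-04) for neo cells alone and 0.85 ± 0.45 (adjusted p = 0.134) for puro cells alone. The ratio of normalized counts to WT HSPCs was 14.1-fold in neo cells (95% interval 10.9 to 18.5) and 1.85-fold in puro cells (95% interval 1.35 to 2.55), counting error only. The pooled call was lost against either pair of WT libraries of like Gm26917 share, at 3.22 (adjusted p = 0.0650) for the lower and 2.52 (adjusted p = 0.0887) for the higher share. Of its exon bases 30.65% are shared with a gene on the other strand, Gm44732, which had 0 counts in all 14 libraries.

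Ccnd1, the D cyclin that mitogen signals induce in many tissues, was the lowest of the D cyclins and fell furthest (chromosome 7, 144929931 to 144939925). WT HSPC replicates 1 to 4 held 19.7, 22.2, 17.3 and 15.97 CPM. Neo cells held 1.57, 1.38 and 2.08 CPM and puro cells 3.32, 2.68 and 2.62 CPM. The highest MLL-AF9 library was far below the lowest WT library. Means of 2.27 ± 0.736 CPM (SD, n = 6) against 18.8 ± 2.75 CPM (SD, n = 4) gave a log2 difference of -3.05 ± 0.32 (SE, adjusted p = 1.41e-05, edgeR). Of its exon bases 23.36% are shared with a gene on the other strand, LTO1, which had 561 to 1025 counts in WT and 410 to 851 counts in MLL-AF9 libraries, where Ccnd1 had 430 to 958 and 70 to 165. How far reads of LTO1 enter the Ccnd1 counts was not tested.

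Ccnd2, the D cyclin induced by cytokines in blood cells, was not called (chromosome 6, 127125162 to 127152193). It was at 124, 177, 65.5 and 74.2 CPM in WT HSPC replicates 1 to 4. Neo cells held 45.4, 70.0 and 44.1 CPM and puro cells 87.1, 121 and 92.5 CPM. The WT libraries spanned a wider range than the puro libraries, and neo replicate 2 lay inside the WT range. The log2 difference was -0.53 ± 0.36 (SE, adjusted p = 0.216, edgeR), and for neo cells alone it was -1.03 (adjusted p = 0.0589).

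Ccnd3, the D cyclin that precursors of B and T cells need to expand, was the most abundant of the 10 genes in HSPCs and fell in MLL-AF9 cells (chromosome 17, 47505051 to 47599691). WT HSPC replicates 1 to 4 held 422, 302, 622 and 639 CPM. Neo cells held 252, 176 and 159 CPM and puro cells 256, 126 and 243 CPM. The highest MLL-AF9 library was below the lowest WT library, so the groups did not overlap. The log2 difference was -1.30 ± 0.30 (SE, adjusted p = 0.00293, edgeR). With total counts only it was -0.59 and not called (adjusted p = 0.0947), and with the GC correction it was -0.57 and called. A processed pseudogene, Ccnd3-ps, had 19 to 81 counts a library and could share reads with it.

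**Figure D2:**
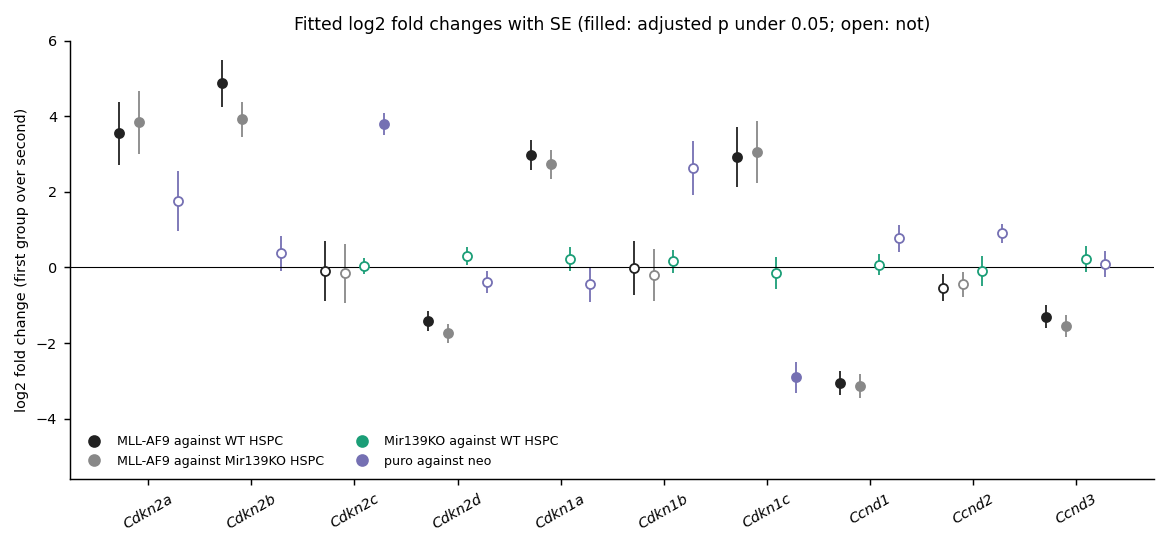
Fitted log2 difference of each of the 10 genes in 4 comparisons (MLL-AF9 against WT HSPCs, Mir139KO against WT HSPCs, MLL-AF9 against Mir139KO HSPCs, puro against neo), with bars of 1 SE and filled points at an adjusted p under 0.05. Cdkn2b reaches 4.87 and Ccnd1 -3.05 against WT HSPCs, all 8 genes tested between Mir139KO and WT HSPCs lie within 0.31 of 0, and Cdkn2c and Cdkn1c are the 2 filled points of puro against neo.

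The plot of fitted differences shows the comparisons side by side. Both comparisons of MLL-AF9 cells use the same 6 libraries, so their likeness is not independent evidence.

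Divided by exon length, the levels can be set in order within each group. In WT HSPCs Ccnd3 led with 56.6 CPM per kb and did not overlap the next gene, Cdkn2d with 25.6 CPM per kb. Cdkn2c (21.2), Ccnd2 (11.7), Cdkn1b (7.53), Cdkn1a (5.38) and Ccnd1 (3.99 CPM per kb) followed, each overlapping its neighbour in range. Cdkn1c (0.218), Cdkn2a (0.151) and Cdkn2b (0.029 CPM per kb) were far lower, with Cdkn1c and Cdkn2a overlapping. Mir139KO HSPCs had the same order of means. In neo cells Cdkn1a led with 49.1 CPM per kb, and its range overlapped that of Ccnd3 (22.3 CPM per kb), whereas Ccnd1 was last at 0.356 CPM per kb, below the range of every other gene. Puro cells had Cdkn2c (37.3), Cdkn1a (35.8) and Ccnd3 (23.7 CPM per kb) at the top, each overlapping its neighbour in that order, and Cdkn1c last at 0.387 CPM per kb.

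Summed within families on this scale, the INK4 genes came to 47.0 ± 4.61 CPM per kb in WT and 54.2 ± 5.59 in Mir139KO HSPCs (SD, n = 4 each), and to 15.3 ± 2.37 in neo and 49.5 ± 6.37 in puro cells (SD, n = 3 each). Neo cells differed from WT HSPCs in both the sum and its makeup. Cdkn2c made up 45.1 ± 5.51% of the INK4 sum in WT HSPCs (SD, n = 4), 11.8, 17.2 and 25.8% in neo replicates 1 to 3, and 76.3, 73.2 and 76.2% in puro replicates 1 to 3. Cdkn2d made up 54.5 ± 5.36% of it in WT HSPCs, 70.3 ± 11.8% in neo cells (SD, n = 3) and 17.4 ± 5.18% in puro cells (SD, n = 3). Cdkn2a made up 1.19 to 8.43% and Cdkn2b 2.05 to 8.10% in MLL-AF9 libraries, and neither passed 0.735% in any HSPC library. The puro sum was near that of WT HSPCs with another makeup.

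The Cip/Kip sum was 13.1 ± 1.55 CPM per kb in WT HSPCs (SD, n = 4) and 26.2 to 83.0 CPM per kb in the 6 MLL-AF9 libraries, with a median of 53.4. Cdkn1a made up 42.1 ± 14.7% of it in WT HSPCs, 89.8 ± 2.86% in neo cells and 74.2 ± 4.51% in puro cells (SD, n = 3 each). Cdkn1b made up 56.1 ± 15.3% in WT HSPCs, 3.69 ± 1.62% in neo cells and 24.95 ± 4.66% in puro cells. Cdkn1a thus took the larger part of the Cip/Kip transcripts in all 6 MLL-AF9 libraries, where its lowest share was 70.7%, and its highest share in WT HSPCs was 58.8%. The D cyclin sum was 72.3 ± 12.6 CPM per kb in WT HSPCs (SD, n = 4) and 31.7 ± 6.35 CPM per kb in MLL-AF9 cells (SD, n = 6), without overlap between the groups. Ccnd3 held most of it throughout, with 76.6 ± 13.04% in WT HSPCs and 72.3 ± 11.1% in MLL-AF9 cells, whereas the share of Ccnd1 was 5.77 ± 1.88% and 1.54 ± 0.450%.

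**Figure D3:**
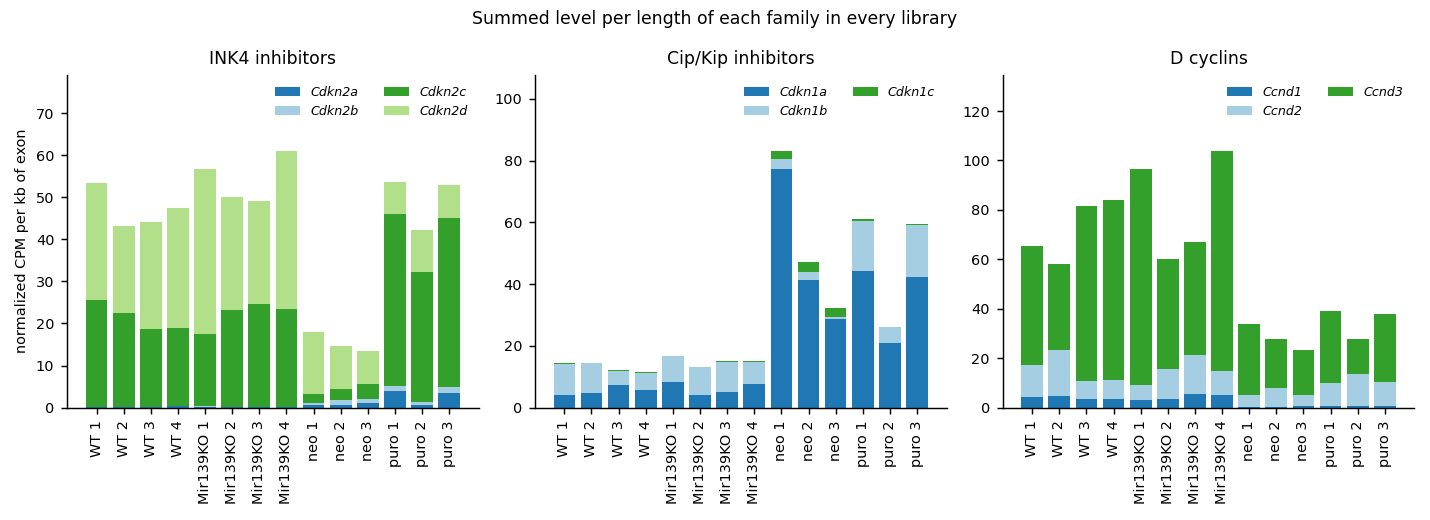
Stacked bars of the level per exon length (CPM per kb) of the members of each family in each of the 14 libraries, for the INK4 inhibitors, the Cip/Kip inhibitors and the D cyclins. The INK4 bars of neo libraries stand at 13.4 to 17.95 CPM per kb against 42.2 to 53.5 in puro libraries, where Cdkn2c makes up most of the bar, and the D cyclin bars are lower in all MLL-AF9 libraries than in WT libraries.

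Whether loss of Mir139 in cells without the fusion gene goes with a change in these genes was asked by comparing Mir139KO with WT HSPCs. None of the 8 genes with enough counts was called by edgeR, and none had an unadjusted p under 0.05 (lowest 0.234, for Cdkn2d). Of all 15056 genes tested 0% were called, with 86 at an unadjusted p under 0.05, and DESeq2 and limma-voom also called 0. The groups did not overlap for 0 of the 10 genes and for 0.491% of all genes. Cdkn2a (0.302, 0.0572, 0.0977 and 0.120 CPM in Mir139KO replicates 1 to 4) and Cdkn2b (0.0862, 0.114, 0.0732 and 0.0797 CPM) had too few counts for the test. They came from 2 to 7 counts a library, where 3 counts give 0.0732 to 0.129 CPM.

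The differences among the 8 genes were small beside their errors. Cdkn2d showed the largest, with 61.5, 42.1, 38.7 and 59.1 CPM in Mir139KO replicates 1 to 4 and a log2 difference of 0.31 ± 0.24 (SE). Cdkn1a held 29.8, 14.3, 18.3 and 27.4 CPM (0.22 ± 0.32), Cdkn1b 37.5, 41.0, 43.9 and 32.2 CPM (0.16 ± 0.30) and Cdkn2c 46.3, 62.2, 65.5 and 62.3 CPM (0.04 ± 0.22). Among D cyclins, Ccnd1 held 14.3, 15.6, 25.6 and 24.4 CPM (0.07 ± 0.28), Ccnd2 56.8, 117, 151 and 89.2 CPM (-0.10 ± 0.40) and Ccnd3 767, 390, 399 and 781 CPM (0.22 ± 0.35). Cdkn1c held 0.474, 0.200, 0.317 and 0.638 CPM (-0.16 ± 0.42). The genotypes overlapped for every one of them.

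Within the HSPCs, some of these genes followed the share of counts taken by Gm26917 and not the genotype. Ccnd3 was at 302 to 422 CPM in the 4 HSPC libraries with Gm26917 shares under 25% and at 622 to 781 CPM in the 4 with higher shares. Ccnd2 ran the other way, with 117 to 177 CPM in the former and 56.8 to 89.2 CPM in the latter. Cdkn1a was at 14.3 to 18.3 CPM in the former and 20.3 to 29.8 CPM in the latter. Cdkn1b was at 41.0 to 46.1 CPM in the former and 21.7 to 37.5 CPM in the latter, and Cdkn1c at 0.200 to 0.437 and 0.474 to 0.638 CPM. For these 5 of the 10 genes the libraries of unlike share did not overlap. How many of all genes split this way was not counted, so the number is not a trait of this set. The part of the share in their levels was not tested. With the share class as a covariate edgeR called 0 genes between the genotypes, with 536 at an unadjusted p under 0.05.

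Against Mir139KO HSPCs, 7 of the 10 genes were called in MLL-AF9 cells, 4 higher and 3 lower, where 69.3% of all 16953 genes tested were called, 37.3% higher and 31.9% lower. They were the 7 called against WT HSPCs. The groups did not overlap for 6 of the 10 and for 58% of all genes. The log2 difference was 3.84 ± 0.84 (SE) for Cdkn2a, 3.92 ± 0.46 for Cdkn2b, 2.73 ± 0.39 for Cdkn1a and 3.05 ± 0.82 for Cdkn1c. It was -1.74 ± 0.25 for Cdkn2d, -3.15 ± 0.32 for Ccnd1 and -1.54 ± 0.29 for Ccnd3. The adjusted p was 0.00531 or lower for all 7 (edgeR), with Cdkn1c the highest. Against the higher-share Mir139KO libraries alone Cdkn1c was at 2.54 and no longer called (adjusted p = 0.0907). The ratio of normalized counts was 15.6-fold for Cdkn2a (95% interval 9.55 to 27.5) and 15.8-fold for Cdkn2b (95% interval 8.73 to 31.8), counting error only. Cdkn2b thus lay lower against Mir139KO than against WT HSPCs, from 11 and 7 counts in the respective 4 HSPC libraries, and its difference between the genotypes was not tested.

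The MLL-AF9 vectors differ in the drug used for selection, and the labels give nothing else that sets their cultures apart. Between puro and neo cells 2 of the 10 genes were called, 1 higher and 1 lower, where 0.873% of all 16503 genes tested were called, 0.564% higher and 0.309% lower. Cdkn2c was higher in puro cells by 3.80 ± 0.30 on the log2 scale (SE, adjusted p = 0.00861, edgeR), from 7.24 ± 1.86 CPM in neo cells to 100.3 ± 15.1 CPM in puro cells (SD, n = 3 each). Cdkn1c was lower in puro cells, with a log2 difference of -2.91 ± 0.41 (adjusted p = 0.0354), from 5.98 ± 0.707 to 0.788 ± 0.259 CPM. The log2 differences held their size when single libraries were left out, between 3.598 and 4.02 for Cdkn2c and between -3.17 and -2.67 for Cdkn1c over all settings tried, but the calls did not. With any 1 library left out Cdkn1c was called only without puro replicate 2, and Cdkn2c only without puro replicate 2 or neo replicate 1. Of all genes 144 were called with every library, 41, 0 and 0 without neo replicates 1, 2 and 3, and 5, 990 and 3 without puro replicates 1, 2 and 3. With puro replicates 1 and 3 summed 5 genes were called, neither of these among them.

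The vectors did not overlap for 5 of the 10 genes, Cdkn2c, Cdkn1b, Cdkn1c, Ccnd1 and Ccnd2, against 19.9% of all genes. Cdkn1b was higher in puro cells by 2.63 ± 0.71 on the log2 scale and was not called (SE, unadjusted p = 0.00852, adjusted p = 0.165, edgeR). Without puro replicate 2 it was called at 3.02. Ccnd2 (0.91 ± 0.25, adjusted p = 0.169) and Ccnd1 (0.78 ± 0.36, adjusted p = 0.417) did not pass the test either. Cdkn2a, at 1.75 ± 0.79 (adjusted p = 0.402), overlapped between the vectors in puro replicate 2, and without that library it was called at 2.25.

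**Figure D4:**
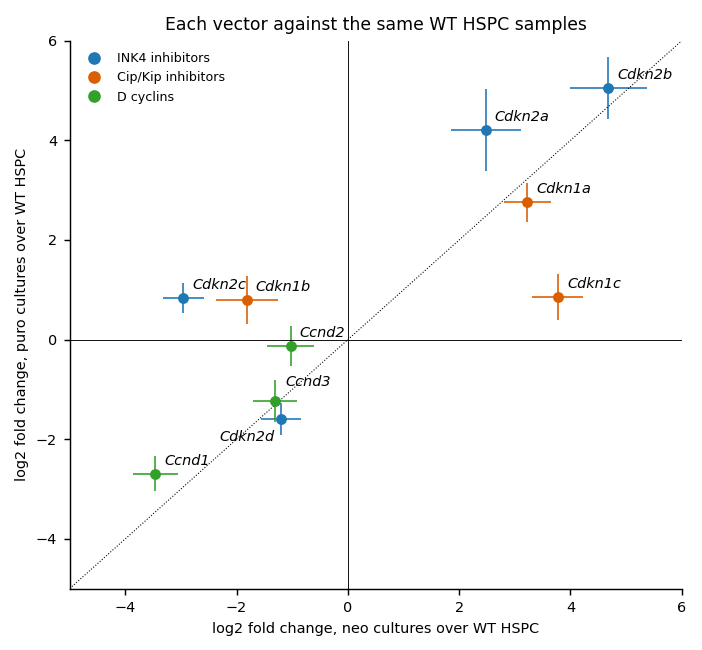
Log2 difference from WT HSPCs of each of the 10 genes in neo cells (horizontal axis) and in puro cells (vertical axis), with bars of 1 SE and a dotted line of equality; both axes share the 4 WT libraries. Cdkn2c (-2.96 in neo, 0.83 in puro) and Cdkn1b (-1.82 and 0.79) lie on opposite sides of 0, Cdkn1c lies below the line, and the other 7 genes have the same sign on both axes.

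The plot of neo against puro differences places the 7 other genes nearer to the line. Among them Cdkn2a, Ccnd1 and Ccnd2 differed between the vectors by the amounts given above, and the ranges of Ccnd1 and Ccnd2 did not overlap. Cdkn2b was at 4.68 and 5.05, Cdkn1a at 3.23 and 2.76, Cdkn2d at -1.20 and -1.59, and Ccnd3 at -1.31 and -1.23 in neo and puro cells against WT HSPCs, called with each vector alone.

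Puro replicates 1 and 3 also differed from puro replicate 2 in markers of dividing cells. The summed level of 6 such markers (Mki67, Top2a, Birc5, Aurkb, Plk1 and Cdc20) was 313, 1432 and 328 CPM in puro replicates 1 to 3, 733, 1546 and 1233 CPM in neo replicates 1 to 3, and 917 to 1308 CPM in WT HSPCs. All 6 had over 10 counts in every library, and each of the 6 was lower in puro replicates 1 and 3 than in puro replicate 2. The sum does not compare MLL-AF9 cells with WT HSPCs evenly, since Mki67, a large part of it, was called higher in MLL-AF9 cells (1.29 on the log2 scale), whereas Birc5 (-1.80), Aurkb (-1.73), Plk1 (-2.29) and Cdc20 (-2.37) were called lower and Top2a (-0.31) was not called. In the order of the puro replicates, Cdkn2a was at 4.65, 0.586 and 4.09 CPM, Cdkn1b at 73.6, 23.5 and 77.7 CPM, Cdkn1a at 158, 73.9 and 149.7 CPM and Ccnd3 at 256, 126 and 243 CPM in puro cells. All 4 genes were thus higher in the puro libraries with the lower sum, whereas Cdkn2b (1.53, 1.31 and 1.88 CPM) and Cdkn2c (109.7, 82.9 and 108 CPM) differed less. Among neo libraries, replicate 1 had the lowest sum and the highest Cdkn1a (274.7 CPM), Cdkn1b (14.3 CPM) and Ccnd3 (252 CPM), but the lowest Cdkn2a (0.736 CPM). Cdkn2d ran in opposite ways, being highest in neo replicate 1 (23.2 CPM) and lowest in puro replicates 1 and 3 (11.99 and 12.2 CPM). HSPC markers came to 1215, 697 and 1191 CPM in puro and 328, 314 and 531 CPM in neo replicates 1 to 3, and 5 monocyte markers to 744, 188 and 684 and to 194, 598 and 228 CPM. Puro replicates 1 and 3 were the most alike pair of libraries, with more difference between them than sampling noise. The part of these markers in the results was not tested.

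The partners and targets of these genes were counted by list in MLL-AF9 cells against WT HSPCs, to be read against the 32.8% and 29.4% of all genes called higher and lower. With total counts only these shares were 39.5% and 18.3%, with the GC correction 31.3% and 27.2%, and the list counts under those settings are to be read against them. Of 12 CDKs and later cyclins, 4 rose and 4 fell. Cdk4, the main partner of D cyclins, fell from 409 ± 181 CPM in WT HSPCs (SD, n = 4) to 79.7 ± 45.4 CPM in MLL-AF9 cells (SD, n = 6), a log2 difference of -2.37 (adjusted p = 7.92e-04). Cdk6, its close relative, was higher by 1.502 (adjusted p = 0.0119), from 305 CPM in WT HSPCs to 708 in neo and 1033 in puro cells; it was named after its values were seen. Ccne1, the cyclin that activates CDK2, fell by 2.82 and Mnat1, a subunit of the kinase that activates CDKs, rose by 3.42 on the log2 scale. The counts became 5 and 2 with total counts only, and 2 and 6 with the GC correction. Without WT replicate 4 the counts were 2 and 3, and against the lower-share WT libraries alone 1 and 2.

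Of 13 RB pocket proteins and E2F factors, 4 rose and 5 fell. Rb1, which encodes RB, rose by 2.76 on the log2 scale, from 14.8 ± 9.75 to 100.6 ± 46.1 CPM. E2f4, a repressing E2F of resting cells, fell by 2.33 and E2f2, an activating one, fell by 2.20. The counts were 4 and 4 with total counts only, 2 and 5 without WT replicate 4, and against the lower-share and the higher-share WT libraries alone 1 and 4, and 6 and 4. Of 12 E2F-driven S phase genes tested out of 14, 1 rose and 6 fell, with a median log2 difference of -1.26 against 0.14 over all genes. Mcm5 and Mcm2, subunits of the replicative helicase, fell by 2.82 and 2.61, and Pola1, the catalytic subunit of DNA polymerase alpha, was the 1 that rose, by 2.76. Cdt1 and Tk1 were listed at 0 in all 14 libraries. For this list 1 rose and 4 fell with total counts only, and with limma-voom 1 and 10.

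Of 11 genes tested out of 13 for the ubiquitin ligases of D cyclins and Cip/Kip proteins, 2 rose and 5 fell, and with total counts only 3 rose and 3 fell. Ubac1 and Rnf123, the subunits of the ligase KPC that acts on p27, fell by 3.02 and 1.69 on the log2 scale, and Ddb1, an adaptor of CUL4 ligases, fell by 1.90. Skp1a and Fbxo31 were listed at 0 in all libraries.

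Of 19 genes of p53 and its targets, 11 rose, 2 fell and 6 were not called, with a median log2 difference of 1.63. Polk, a DNA polymerase of damage bypass, rose by 3.32, Trp53inp1, a p53 cofactor, by 2.90 and Ccng1, cyclin G1, by 2.78 on the log2 scale. The 2 that fell, named after their values were seen, were Trp53 itself (-2.35), which encodes p53, and Gtse1 (-1.27), a mitotic gene that restrains p53. Mdm2, the ligase that removes p53 and is itself a target, was at 2.497. Pmaip1 rose most in this list, by 4.80, from 1.75 CPM in WT HSPCs to 54.5 in neo and 43.8 CPM in puro cells. It was below the mean level set for naming, and was named after its values were seen. Cdkn1a, the target shown above with a p53 element before its start 1, was not counted in this list. With total counts only 13 rose and 1 fell, and with the GC correction 12 and 1. What these transcripts say of p53 activity was not tested.

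Of 14 regulators of the Cdkn2a-Cdkn2b locus, mostly Polycomb genes, 3 rose, 2 fell and 9 were not called. With total counts only 6 rose and 1 fell, and against the higher-share WT libraries alone 7 and 3. Suz12, a core subunit of Polycomb complex PRC2, rose by 2.82 on the log2 scale, from 18.02 ± 13.6 to 129 ± 49.1 CPM. Ezh2 and Eed, which encode other core subunits of PRC2, were at -0.0072 and 0.38 and were not called (adjusted p = 0.990 and 0.409, edgeR). Both were named after their values were seen. Rnf2, the ubiquitin ligase subunit of PRC1, was at 1.69, with 0.21 and no call under the GC correction and 1.41 and no call for puro cells alone. Zbtb7a, a repressor of Cdkn2a transcription, was at -0.69 and lost its call with total counts only (-0.13), with the GC correction (-0.04) and with each vector alone. Bmi1, the PRC1 subunit best known as a repressor of this locus, was at 1.04 ± 0.52 (SE) and was not called (adjusted p = 0.102), and it was named after its values were seen. The other gene of this list that fell was Cbx8 (-2.25), from 15.3 CPM in WT HSPCs to 1.63 in neo and 4.83 CPM in puro cells. It was below the mean level set for naming, and it too was named after its values were seen.

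Of 10 TGF-beta and SMAD genes, 4 rose and 2 fell, and with total counts only 4 and 1. Tgfbr1, the type I receptor, rose by 3.18 on the log2 scale, and Tgfb1, the ligand, fell by 1.63. Skil, a SMAD corepressor, was at 1.72, and at 0.54 with no call under the GC correction. Of 9 FOXO and MYC factors, 1 rose and 5 fell, and with total counts only 1 and 2. Mxi1, a MYC antagonist, rose by 2.16. Mycl (-11.1) and Mycn (-8.16) differed most in this list. Mycl went from 5.84 CPM in WT HSPCs to 0 with both vectors. Mycn went from 9.02 CPM to 0.0194 in neo and 0.0381 CPM in puro cells. Both were below the mean level set for naming, and were named after their values were seen. Foxo4, a forkhead factor upstream of Cdkn1b, was at -1.27, with -0.62 and no call with total counts only. Myc was at -1.18 and lost its call with total counts only (-0.57), the GC correction (-0.57), the lower-share WT libraries (-0.998) and neo cells alone (-0.89).

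**Figure D5:**
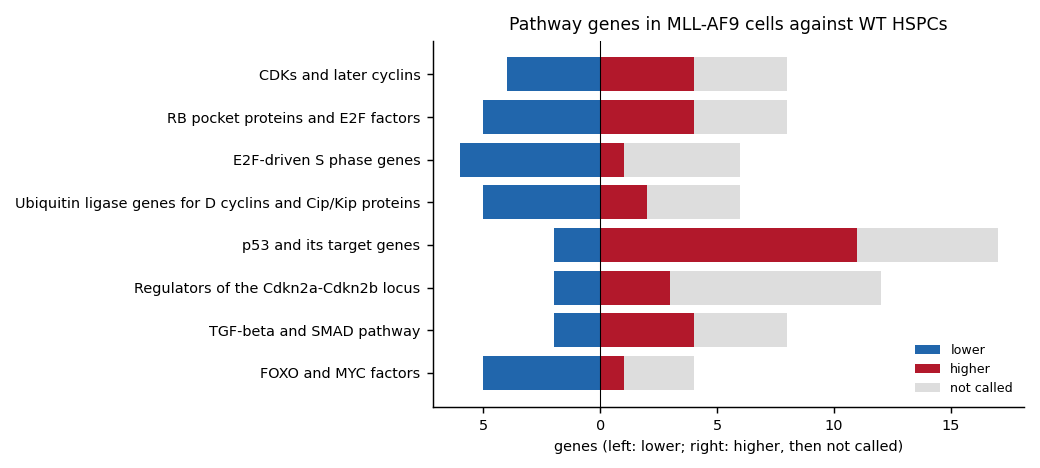
Number of genes called lower (left of 0), called higher (right of 0) and not called in each of 8 pathway lists, for MLL-AF9 cells against WT HSPCs. The p53 list has 11 genes higher and 2 lower, the S phase list 1 higher and 6 lower, and all 8 lists have calls in both directions.

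The plot of pathway lists gives the counts with TMM factors. Against Mir139KO HSPCs the counts, higher then lower, were 11 and 3 for the p53 list, 1 and 7 for the S phase list and 5 and 2 for the locus regulators. Between Mir139KO and WT HSPCs, and between puro and neo cells, none of the 98 genes of the 8 lists that were tested was called by edgeR, with 0 and 14 of them at an unadjusted p under 0.05. DESeq2 called 2 of them higher and 2 lower in puro cells, where it called 4.87% of all genes higher and 3.16% lower.

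The genes whose levels were most like each member over the 14 libraries were taken by Pearson's r of log2 CPM among 10966 genes. These values describe libraries that fall into separate groups, so they mostly follow the group differences, and no test was made. Ccnd3 was most like Sema4b and Tnfaip2 (both 0.990), Ccnd1 like Wdcp (0.989), Cdkn2c like Ptpn3 (0.983), Cdkn1a like Iffo2 (0.982), Cdkn2b like Tm6sf1 and Cdkn2d like Cdc25b (both 0.977), and Cdkn1b like Gch1 (0.971). The highest values for Cdkn1c (Ryr1, 0.961), Cdkn2a (Rnf220, 0.947) and Ccnd2 (Kdelc2, 0.934) were lower.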

How the data were processed

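RNA was measured in 14 samples, mapped to groups by their titles and labels. The deposited values are raw counts per gene, made by the authors with STAR 2.5.3e on GRCm38 and featureCounts 1.6.0 with a GENCODE annotation, after FastQC 0.11.8 per the submitters' processing notes. The strand setting and the handling of reads on several genes are not given in the sources used here, so reads of overlapping genes on opposite strands cannot be told apart. A further deposited table holds 10 columns that were not matched to these 14 samples and were left out.

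Genes that reached 10 counts in as many libraries as the smaller group holds were tested in edgeR 4.0.16 under R 4.3.3 (TMM factors, robust quasi-likelihood F test, only the groups compared, no covariates), and Benjamini-Hochberg adjustment ran over all genes tested, with calls at an adjusted p under 0.05. SE is the log2 difference divided by the square root of F. Log2 CPM used a prior count of 2. Exon lengths and positions are from GENCODE M21. Intervals of count ratios are exact and, like the 3-count floors, cover counting error only. The alternatives were RLE factors, total counts, DESeq2 1.42.0, limma-voom (limma 3.58.1), other filters (none, or a mean of at least 100 counts), all 14 libraries in a single fit, a replicate block, Gm26917 left out or its share (split at 25%) as classes or covariate, a GC correction (a spline with 5 degrees of freedom per library), each vector alone, puro replicates 1 and 3 summed, and each replicate left out. The steps were tested on simulated data. The genes, pathway lists and tests were chosen with earlier results of these data known. Named were all 10 genes, up to 3 called genes of each list with the largest differences at a mean log2 CPM of at least 3, the 2 genes most like each member, and the neighbours of Cdkn2a and Cdkn2b. The values of some marker genes are not reported here.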

Additional observations from a re-analysis of the deposited data

Results flagged for a closer look

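Among libraries of a group, Cdkn2a stood apart in WT HSPC replicate 4 at 0.409 CPM, from 11 counts, where the other 3 WT libraries held 0.0832 to 0.116 CPM. Cdkn2d stood apart in neo replicate 1 at 23.2 CPM, where the other 5 MLL-AF9 libraries held 11.99 to 16.1 CPM. Chance marks about 1 in 20 groups this way, and 30 groups of 4 or 6 libraries were looked at.

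Between the vectors, the difference from WT HSPCs was not the same for 2 genes, by the edgeR test of puro against neo itself. For Cdkn2c it was larger in puro cells by 3.80 on the log2 scale and for Cdkn1c the puro minus neo difference was -2.91, and every puro library lay on 1 side of every neo library for both.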

How the results depend on the processing

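The 7 genes called against WT HSPCs and against Mir139KO HSPCs kept their direction under every setting in which they were tested (Cdkn2a and Cdkn2b were too low for the mean of 100 counts), and all 7 were called with each replicate left out in turn. Calls were lost there only under settings named in the report, which are total counts (Ccnd3), the WT or Mir139KO libraries of like Gm26917 share (Cdkn2a, Cdkn1c) and puro cells alone (Cdkn1c). Only genes that were not called changed sign. Against WT HSPCs, Cdkn2c was at 0.47 with total counts, 0.48 with the GC correction, 0.0099 against the higher-share WT libraries and 0.83 in puro cells alone. Cdkn1b was at 0.50 with total counts, 0.039 with a mean of at least 100 counts, 0.46 against the higher-share libraries and 0.79 in puro cells, and Ccnd2 at 0.024 against the higher-share libraries. With single replicates left out Cdkn2c ranged from -0.42 to 0.16 and Cdkn1b from -0.44 to 0.23.

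Against Mir139KO HSPCs, total counts, the GC correction and puro cells alone gave 0.55, 0.56 and 0.79 for Cdkn2c, total counts and puro cells 0.53 and 0.62 for Cdkn1b, and total counts and the higher-share libraries 0.16 and 0.0069 for Ccnd2. With replicates left out, Cdkn2c ranged from -0.47 to 0.11 and Cdkn1b from -0.61 to 0.056. Between Mir139KO and WT HSPCs, total counts gave -0.080 for Cdkn2c, -0.026 for Cdkn1b and -0.059 for Ccnd1, and the GC correction -0.10 for Cdkn2c. With replicates left out the ranges were -0.023 to 0.14 for Cdkn2c, -0.0027 to 0.32 for Cdkn1b, -0.45 to 0.071 for Cdkn1c, -0.078 to 0.20 for Ccnd1 and -0.35 to 0.21 for Ccnd2.

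Between puro and neo cells, Ccnd3 was at -0.053 with the GC correction and at -0.051 with puro replicates 1 and 3 summed. With replicates left out it ranged from -0.081 to 0.38 and Cdkn1a from -0.72 to 0.072. Of all genes, 144 were called, 1326 by DESeq2, 221 with no filter, 761 in a single fit of all 14 libraries, 5 with those puro libraries summed and 0 to 990 with a replicate left out. Of the 10 genes, 2 were called, 4 by DESeq2 (also Cdkn1b and Ccnd2), 0 with the libraries summed and 0 to 4 with a replicate left out. The causes were not tested.

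Deviations of same-numbered WT and Mir139KO libraries had correlations of -0.776 to 0.854. These were negative where the libraries differed in Gm26917 share class and positive where they had the same class. They therefore cannot show whether replicate numbers pair the samples. With a replicate block 7, 0, 7 and 2 of the 10 genes were called in the 4 comparisons, as without it, and 8912, 0, 10708 and 214 of all genes. With 3 to 11 counts of Cdkn2a and 0 to 4 of Cdkn2b in WT libraries, their folds rest on few reads.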
